A study of Mus musculus with 4 samples.

Results

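Arterial endothelial cells were examined in 4 single-cell RNA sequencing libraries from the submandibular salivary gland of mice. They were selected on measured values: a barcode needed 300 genes or more, no more than 10% mitochondrial UMIs (unique molecular identifiers, which tag single captured transcripts), and 5 conditions on raw UMIs. These were at least 3 UMIs over the endothelial genes Pecam1, Cdh5, Egfl7 and Flt1, at least 2 UMIs over the arterial genes Gja5, Sema3g and Stmn2, none of Ptprc or Pdgfra, none of the venous genes Selp or Ackr1, and fewer than 6 UMIs over Ifit1, Ifit2, Ifit3, Ifit3b and Oasl1. In all, 1070 of 36685 retained cells met the rule, 194 and 274 in the deligated and 315 and 287 in the homeostatic libraries. They lay within an endothelial gate of 12348 cells, which is the rule without its arterial and venous conditions. Because measured values chose these cells, Gja5, Sema3g and Stmn2 are described below and not tested.

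All libraries came from female C57BL6/J mice, and the suspensions had been depleted of epithelial cells (EpCAM), red blood cells (Ter119) and dead cells after enzymatic digestion. In the deligated group (2 libraries, age 14 weeks) a metal clip had closed the main ducts for 14 days and had then been taken off for 5 days, whereas the homeostatic group (2 libraries, age 12 weeks) had no surgery. The protocols name the sublingual gland beside the submandibular gland, and they do not say how many animals gave a library, so p-values measure the spread between libraries only. The file headers name Cell Ranger 6.0.1 for the deligated and 7.0.0 for the homeostatic libraries, so that surgery, age and software version cannot be told apart in any difference between the groups.

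Arterial endothelium lines the vessels that carry blood into a tissue. It is specified by Notch signalling with SOXF and ETS transcription factors, is coupled by gap junction connexins, and lies on an elastic lamina built on elastin and fibulins. Between large arteries and capillaries it grades into arterioles, whose cells share genes with the capillary bed.

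Median UMIs per arterial cell were 7582.5 and 4227.5 in the deligated and 3872 and 4265 in the homeostatic libraries, and the summed arterial UMIs were 1727129 and 1482961 against 1493040 and 1379911. Deligated library 1 was thus the deepest per cell, while the sums differed little. Between 12 and 43 retained barcodes were shared by each pair of libraries, and 0 of them belonged to arterial cells. Levels are given below as CPM, UMIs per 1000000 UMIs summed over the cells of a class in a library, with deligated libraries 1 and 2 named before homeostatic libraries 1 and 2.

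The label was checked on 19 arterial markers outside the rule, against 10142 capillary-type cells of the same gate that had no UMI of the arterial, venous or lymphatic genes (Prox1, Mmrn1, Lyve1). Summed over the 19 markers, arterial cells held 11510 and 13263 against 11657 and 12267 CPM, and capillary-type cells 4998 and 4293 against 3004 and 2980 CPM. The sum was higher in arterial cells in all 4 libraries. Mecom, a zinc finger transcription factor of arterial endothelium that the rule did not use, stood at 412 and 424 against 1161 and 1286 CPM in arterial and 85.9 and 37.7 against 90.8 and 85.7 CPM in capillary-type cells. Each of the 18 markers with UMIs in both classes of every library was higher in arterial cells in all 4, from 1.5-fold for the Eph ligand Efnb2 in deligated library 1 to 260-fold for the fibulin gene Fbln5 in the same library. The remaining marker, Gkn3, had 26.3 to 176 CPM in arterial cells, no UMI in capillary-type cells of 2 libraries, and ratios of 574 and 292 that rest on 1 and 3 capillary-type UMIs in deligated library 1 and homeostatic library 1. Since the choice of cells fixes part of this contrast, no test was made. Eln did not set arterial cells apart from venous-type cells, described further on. It was higher there in every library, at 191 and 224 against 371 and 497 CPM. Arterial cells had 166 and 163 against 262 and 288 CPM of Eln. Mecom stood at 177 and 104 against 457 and 576 CPM in venous-type cells, between its capillary-type and arterial levels in every library. The other markers were lower in venous-type than in arterial cells in every library.

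**Figure D1:**
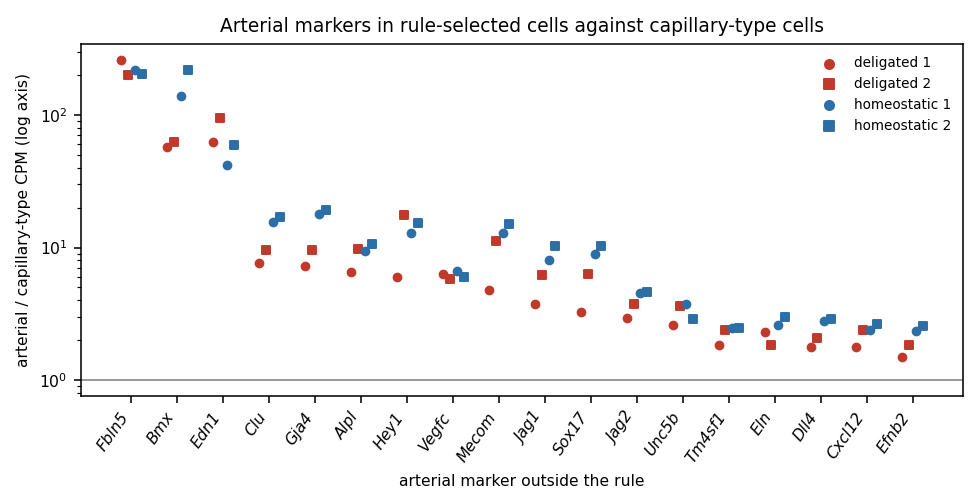
Ratio of arterial to capillary-type CPM (log axis) for the 18 arterial markers outside the rule with UMIs in both classes of every library. Each point is 1 library, and every point lies above the line at a ratio of 1.

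The genes that stood highest above capillary-type cells, by the smallest of the 4 within-library ratios among genes with at least 50 arterial UMIs per library included matrix, signalling and junction genes. Fbln5, which binds elastin, was at 334 and 527 against 536 and 532 CPM in arterial and 1.29 and 2.65 against 2.46 and 2.64 CPM in capillary-type cells. The kinase gene Bmx was at 114 and 93.7 against 121 and 151 CPM in arterial and 1.99 and 1.51 against 0.874 and 0.698 CPM in capillary-type cells. Edn1, which encodes the vasoconstrictor endothelin, was at 233 and 285 against 321 and 309 CPM in arterial and 3.74 and 3.03 against 7.63 and 5.19 CPM in capillary-type cells. Bmx and Edn1, like Fbln5, were close to absent from capillary-type sums in every library. Fibronectin (Fn1) was at 221 and 259.6 against 373 and 306 CPM in arterial and 5.61 and 5.20 against 7.86 and 5.97 CPM in capillary-type cells, and the tight junction gene Cldn5 is described further on. Nebl, Pcsk5, St8sia6, Aif1l, Col8a1, Prom1, Dusp26, Egfl8 and Gfod1 completed the group, each at least 14.6-fold higher in every library. Ccl21a, a lymphatic chemokine, also ranked among these 15 genes, but in each library a single cell held between 36.1% and 60.5% of all UMIs of the lymphatic marker list. At the other end, Gfpt2, Ptpru, Chrm2, Car8 and Brip1 stood at no more than 0.201 times their capillary-type level in any library.

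The rule's own genes differed in how many cells they brought in. Exactly 2 of Gja5, Sema3g and Stmn2 had a UMI in 49.0% and 48.2% of deligated and 46.7% and 45.3% of homeostatic arterial cells, and all 3 had one in 22.2% and 22.3% against 27.6% and 32.4%. Sema3g alone brought in 17.5% and 18.2% of deligated arterial cells, against 11.7% and 10.5% of homeostatic ones. Gja5, a connexin, was at 75.8 and 80.9 against 165 and 170.3 CPM, Sema3g, a secreted guidance cue, at 436 and 544 against 508 and 529 CPM, and Stmn2, a regulator of microtubules, at 444 and 634 against 818 and 765 CPM. Cells at the edge of the rule were less arterial by other genes: Fbln5 was at 334 and 527 against 536 and 532 CPM in all arterial cells, at 19.3 and 131 against 150.1 and 122 CPM in those with exactly 2 UMIs, and at 16.1 and 29.1 against 54.4 and 28.0 CPM in gate cells with exactly 1. The capillary gene Rgcc took the opposite course, with 1001 and 1255 against 687 and 778 CPM in all arterial cells and 1905 and 2133 against 1966 and 1768 CPM in the cells with exactly 1 UMI.

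Arterial cells were not alike. Those with a Stmn2 UMI (143, 216, 257 and 236 cells) held far more of several matrix and growth factor transcripts than those without (51, 58, 58 and 51 cells), at similar median UMIs. Mgp, the matrix Gla protein that inhibits calcification of vessel walls, was 15.8, 16.9, 126 and 15.6 times higher in the 4 libraries. Its Stmn2-negative sums held 24, 14, 4 and 34 UMIs, so the ratio in homeostatic library 1 rests on 4 UMIs. Fbln5 was 13.2, 7.22, 3.32 and 2.40 times higher, and Vegfc, a growth factor best known for lymphatic growth, 10.5, 6.34, 2.90 and 2.04 times. The Notch ligand gene Jag1 stood 5.55, 6.58, 4.32 and 3.14 times higher, and Edn1 4.97, 4.67, 3.64 and 1.84 times.

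Some genes shared with capillaries went the other way. Kdr, the main receptor for vascular endothelial growth factor, was at 0.509, 0.492, 0.499 and 0.511 times its Stmn2-negative level in Stmn2-positive cells, Rgcc at 0.522, 0.549, 0.602 and 0.494 times, and Gpihbp1, which carries lipoprotein lipase to the capillary lumen, at 0.529, 0.526, 0.527 and 0.566 times. Cd36 did not, at 1.20, 1.04, 0.958 and 0.961 times. The chemokine gene Cxcl12 was at 0.818, 0.632, 0.586 and 0.856 times. Other arterial genes did not split this way in every library: Efnb2 ranged from 0.707 to 1.07 times and the Notch ligand Dll4 from 0.846 to 1.67 times. These values describe a division by a gene of the rule and carry no test.

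**Figure D2:**
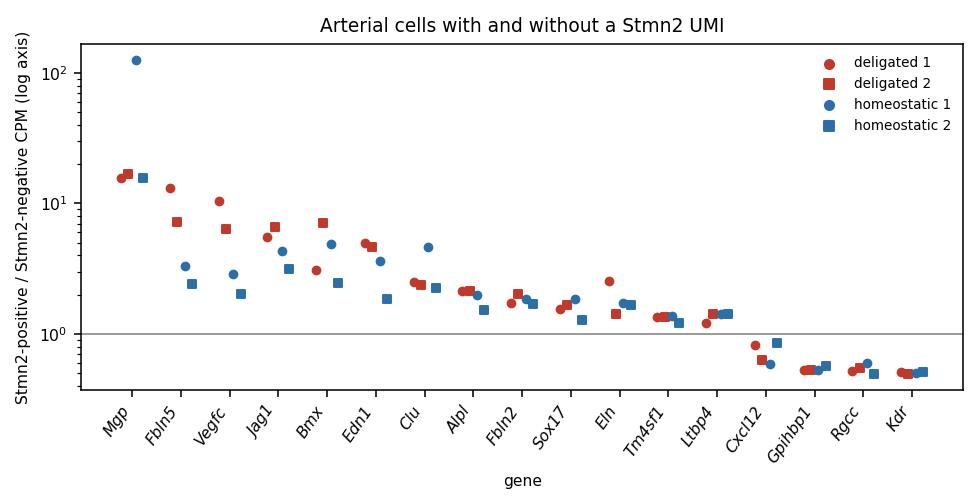
Ratio of CPM in arterial cells with a Stmn2 UMI to CPM in those without (log axis), 1 point per library. The genes from Mgp to Ltbp4 lie above the line at 1 in all 4 libraries, and Cxcl12, Gpihbp1, Rgcc and Kdr lie below it in all 4.

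Arterial cells made up 11.4% (95% interval 9.93 to 13.0%) and 10.1% (9.00 to 11.3%) of the endothelial gate in the deligated libraries, and 7.95% (7.13 to 8.84%) and 7.22% (6.43 to 8.07%) in the homeostatic libraries. The intervals are exact Clopper-Pearson intervals for counting error only. The groups did not overlap, with means of 10.8% ± 0.911 and 7.59% ± 0.518 (SD, n = 2 each), and the exact two-sided permutation test gave p = 0.33, the smallest that 2 against 2 libraries allow. A fixed number of UMIs is met more readily in deeper cells, so each cell was thinned to 1500 UMIs and shallower cells were left out, among them 41 and 114 deligated gate cells and 452 and 487 homeostatic ones. The shares were then 5.46% and 5.21% against 5.15% and 4.87%, a difference of 0.322 points in place of 3.17. Where only the 3 arterial genes were read from thinned cells and the other conditions from all UMIs, a choice made after seeing the data, the shares were 5.54% and 5.47% against 5.39% and 4.90%. In both versions the groups still did not overlap, and the exact permutation test again gave p = 0.33. The difference was within the intervals of the single libraries, which cover counting error only and do not test it.

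**Figure D3:**
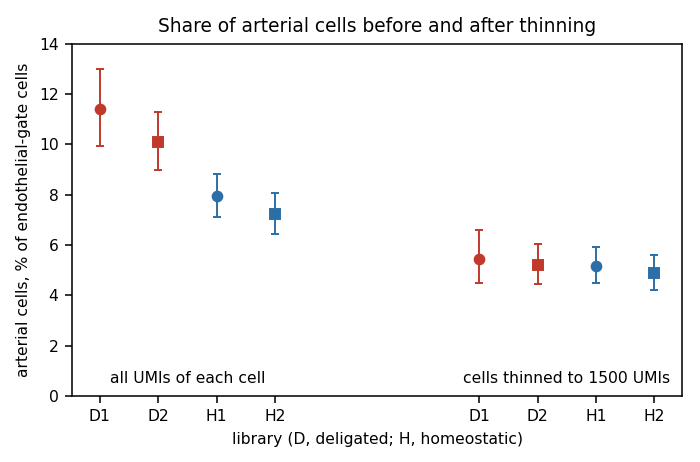
Arterial cells as a percentage of endothelial-gate cells in each library, with 95% Clopper-Pearson intervals (bars), on all UMIs and after thinning each cell to 1500 UMIs. The deligated libraries lie at 11.4% and 10.1% on all UMIs and at 5.46% and 5.21% after thinning, and the homeostatic libraries at 7.95% and 7.22% and at 5.15% and 4.87%.

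The arterial cells of deligated and homeostatic glands were then compared by edgeR's quasi-likelihood test on UMIs summed per library, with Benjamini-Hochberg adjustment over 9598 genes outside the rule and a threshold of 0.05. This called 1200 genes (12.5%), of which 325 (3.39%) were higher and 875 (9.12%) lower in the deligated libraries. Total intron length moved with these calls: of genes with over 100 kb of introns 518 were lower and 9 higher, 44.1% of those tested, against 13 lower and 92 higher of those with at most 2 kb. With this trend removed 683 were called, 293 higher and 390 lower, so that 42.9% in place of 27.1% of the calls were higher. Leaving out deligated library 2 raised the calls to 1983, of which 41.5% were higher.

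Some capillary markers were higher in deligated arterial cells. Of 12 capillary markers 6 rose and 1 fell, beside 3.39% higher and 9.12% lower over all genes tested, with a median log2 difference of 0.44 against 0.00 over all genes tested. Without homeostatic library 1 or homeostatic library 2, or with the intron trend removed, 3 rose, and 2 of 11 tested rose with cells thinned to 1000 UMIs. Without deligated library 2, 8 rose and 4 fell, and with the intron trend removed under the replicate block 3 rose and 3 fell. Plvap, which forms the diaphragms of fenestrae, was at 1930.4 and 1612 against 824 and 859 CPM, a log2 difference of 1.07 (SE 0.15, adjusted p = 0.00241). Kdr was at 1492 and 1368 against 750.1 and 829 CPM, a log2 difference of 0.85 (SE 0.14, adjusted p = 0.00469). Both deligated libraries lay above both homeostatic libraries for Plvap and for Kdr. In venous-type cells the same order held for each of the 6 markers that rose. Plvap was there at 3207 and 3315 against 2510 and 2409 CPM, and Kdr at 1315 and 1082 against 511 and 701 CPM. Set against venous-type cells, 0 of 12 capillary markers were more positive in arterial cells and 1 was more negative. Over all genes tested there, these shares were 0.184% and 0.0717%.

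Aplnr, the apelin receptor of sprouting and venous endothelium (chr2:85136225-85139923, coordinates on GRCm38), stood at 46.3 and 37.1 against 7.37 and 2.90 CPM in arterial cells. Its log2 difference was 2.98 (SE 0.37, adjusted p = 0.00134), and the groups did not overlap, which the rule for naming it required. Among the 12 capillary markers 4 had lower means in the deligated libraries. The one of them that fell was Meox2, a homeobox gene, at 15.6 and 17.5 against 60.3 and 46.4 CPM and a log2 difference of -1.70 (SE 0.23, adjusted p = 0.00200). Meox2 was itself far lower in capillary-type cells, at 2.22 and 2.55 against 2.07 and 3.33 CPM, so that it did not mark that class here. The other 3, named after their values were seen, were the transcription factor gene Tcf15 and the fatty acid handling genes Cd36 and Fabp4. Cd36, like Meox2, was higher in arterial than in capillary-type cells in every library, by 2.52 to 3.09 times. Tcf15, Cd36 and Fabp4 had log2 differences of -0.61, -0.45 and -0.25, with adjusted p of 0.119, 0.173 and 0.233.

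Among 27 tested genes of matrix and elastic fibres 9 rose and 4 fell, beside 3.39% higher and 9.12% lower over all genes tested, with a median log2 difference of 0.32, and without homeostatic library 1 or homeostatic library 2 the number that rose was 4. Without deligated library 1 the list had 6 that rose and 7 that fell, and without deligated library 2 it had 14 and 6. The collagen XV gene Col15a1 (chr4:47208161-47313167), found where basement membranes meet the surrounding matrix, was at 304 and 224 against 49.6 and 75.4 CPM in arterial cells, a log2 difference of 2.09 (SE 0.23, adjusted p = 7.26e-04). Hspg2, which encodes the basement membrane proteoglycan perlecan, was at 525 and 505 against 217 and 229.7 CPM, a log2 difference of 1.20 (SE 0.14, adjusted p = 7.82e-04). Both deligated libraries exceeded both homeostatic ones for each gene. Col4a2, a chain of the collagen of basement membranes that was chosen for mention after its values were seen, showed 1119 and 786 against 497 and 501 CPM and a log2 difference of 0.93 (SE 0.19, adjusted p = 0.0151). Arterial cells with at least 2 UMIs of other cell types' markers were 59 of 194 and 91 of 274 in the deligated libraries. In the homeostatic libraries they were 48 of 315 and 51 of 287. Without such cells 8 of 26 tested genes of the list rose and 5 fell. Fibroblast markers summed to 48.1 and 142 against 38.8 and 39.1 CPM in arterial cells. The part of other cell types in these values was not tested.

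The share of the matrix and elastic fibre genes that fell was near that over all genes tested. Elastin (Eln) was at 166 and 163 against 262 and 288 CPM, a log2 difference of -0.75 (SE 0.13, adjusted p = 0.00642); without homeostatic library 2 it had -0.69 (adjusted p = 0.0711), and with cells thinned to 1000 UMIs -0.52 (adjusted p = 0.164). Eln was also lower in deligated venous-type cells, at 191 and 224 against 371 and 497 CPM. Capillary-type cells had 72.1 and 89.2 against 101 and 97.1 CPM of it. Mgp (chr6:136872435-136875823) was at 679.7 and 511 against 1502 and 1666 CPM in arterial cells, a log2 difference of -1.41 (SE 0.18, adjusted p = 0.00144). The fibulin Fbln5 was at 334 and 527 against 536 and 532 CPM and a log2 difference of -0.33 (SE 0.19, adjusted p = 0.309), and did not pass the test. For Fbln5 deligated library 1 was low and the other 3 libraries were close together.

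Of 14 tested genes of endothelial activation and sprouting 10 rose and 0 fell, beside 3.39% higher and 9.12% lower over all genes tested, with a median log2 difference of 0.82. The number that rose was 6 of 17 tested without homeostatic library 1, 6 of 18 without homeostatic library 2 and 5 of 12 with cells thinned to 1000 UMIs. Without deligated library 2, 11 rose and 2 fell, and with the intron trend removed under the replicate block 9 rose and 2 fell. Cd34, a sialomucin of capillary and sprouting endothelium, was at 550.0 and 452 against 255 and 261 CPM, a log2 difference of 0.96 (SE 0.16, adjusted p = 0.00518). Aplnr, Kdr and Col4a2, given above, belong to this list too. Each had both deligated libraries above both homeostatic libraries.

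The largest rise among the named genes was that of Lrg1 (chr17:56119678-56122001), a secreted glycoprotein that modulates TGF-beta signalling in endothelium and is usually found in venous cells. It was at 77.0 and 76.2 against 8.71 and 5.80 CPM, a log2 difference of 3.37 (SE 0.25, adjusted p = 9.00e-05). Capillary-type cells had 37.0 and 25.3 against 9.21 and 10.9 CPM of Lrg1, so the same order of groups held there. Fam167b (chr4:129576815-129578549) was at 141 and 119 against 31.5 and 46.4 CPM, a log2 difference of 1.75 (SE 0.21, adjusted p = 0.00103). Vwa1, a matrix protein of basement membranes, was at 97.9 and 97.1 against 29.5 and 26.1 CPM and a log2 difference of 1.80 (SE 0.17, adjusted p = 3.47e-04), and with cells thinned to 1000 UMIs its value was 1.40 (adjusted p = 0.0765). Rasd1, a small GTPase gene, was at 57.9 and 117 against 18.1 and 15.9 CPM, a log2 difference of 2.33 (SE 0.34, adjusted p = 0.00278). For these genes the rule for naming them required that the groups did not overlap.

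**Figure D4:**
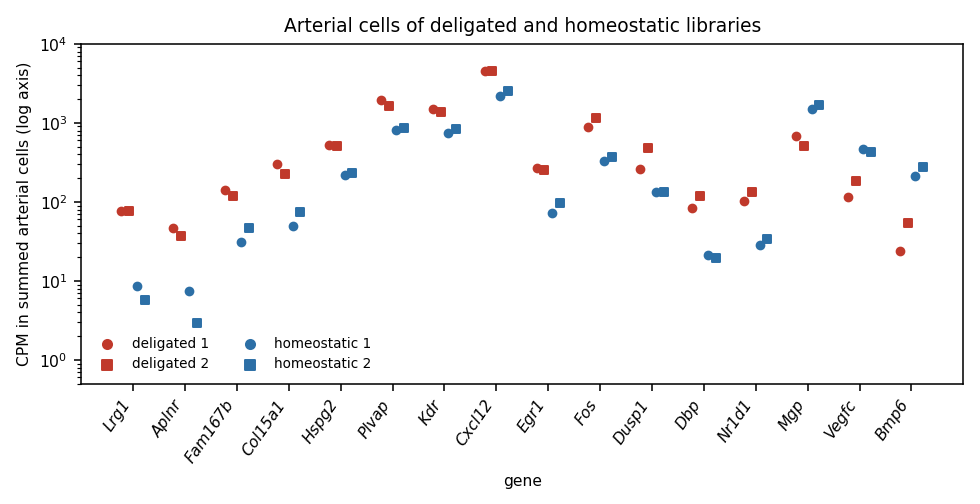
CPM in summed arterial cells (log axis) for 16 genes, 1 point per library. From Lrg1 to Nr1d1 both deligated libraries lie above both homeostatic libraries, and for Mgp, Vegfc and Bmp6 they lie below.

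Of 19 arterial markers outside the rule 1 rose and 4 fell, beside 3.39% higher and 9.12% lower over all genes tested, with a median log2 difference of -0.33; without deligated library 2 as many as 11 fell and 2 rose, and without homeostatic library 2 only 2 fell. Gja4, which encodes an arterial connexin, was at 317 and 439.7 against 573 and 563 CPM, a log2 difference of -0.60 (SE 0.16, adjusted p = 0.0403), and the call was lost under 4 of 16 alternatives, with an adjusted p of 0.224 without homeostatic library 1 and 0.178 without homeostatic library 2. Sox17, a SOXF transcription factor, was at 416 and 691 against 626 and 617 CPM and a log2 difference of -0.19 (SE 0.20, adjusted p = 0.607). The homeostatic values of Sox17 lay between the 2 deligated ones.

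Genes of the Notch pathway were called about as often as all genes. Of 16 tested pathway genes 1 rose and 1 fell, beside 12.5% called over all genes tested, with a median log2 difference of 0.02, and without deligated library 2 this became 4 and 4. The ligands Dll4 and Jag1 stood at 101 and 159 against 157 and 172 and at 72.4 and 131 against 108 and 115 CPM, and the target Hey1 at 105 and 131 against 147 and 146 CPM. Their log2 differences were -0.36, -0.16 and -0.33, with adjusted p of 0.257, 0.723 and 0.170. The gene of this list that fell was the coactivator Maml2, at 52.1 and 45.9 against 355 and 325 CPM and a log2 difference of -2.79 (SE 0.16, adjusted p = 1.74e-05). Maml2 has 405 kb of introns, and its difference was -1.54 with the intron trend removed. Mecom, with 584 kb of introns, had a log2 difference of -1.56 (SE 0.13, adjusted p = 2.00e-04) that became -0.04 (adjusted p = 0.903) with that trend removed.

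Cxcl12, Vegfc and Bmp6 encode secreted factors. Cxcl12, a chemokine that arterial cells supply to their surroundings, was at 4588 and 4475 against 2175 and 2558 CPM in arterial cells, a log2 difference of 0.93 (SE 0.13, adjusted p = 0.00199). Both deligated libraries had more than both homeostatic libraries. Capillary-type cells had 2601 and 1873 against 907 and 973 CPM of Cxcl12, so the same order of groups held there. Vegfc was at 114 and 183 against 463 and 423 CPM, a log2 difference of -1.59 (SE 0.19, adjusted p = 0.00109), and -1.22 (adjusted p = 0.00723) with the intron trend removed. Vegfc was also lower in deligated capillary-type cells, at 18.0 and 31.8 against 69.0 and 71.1 CPM. Venous-type cells had 80.1 and 126 against 314 and 196 CPM of it. The bone morphogenetic protein gene Bmp6 was at 23.7 and 53.9 against 214 and 277 CPM, a log2 difference of -2.69 (SE 0.28, adjusted p = 4.64e-04).

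Of 10 tested shear response genes 2 rose (Thbd and Klf4) and 2 fell (Piezo1 and Nos3), and of 16 tested genes of vascular tone and junctions 4 rose (Ednrb, Ptgs1, Gja1 and Kcnj2) and 2 fell (Gja4 and Nos3), beside 3.39% higher and 9.12% lower over all genes tested. By DESeq2 only 1 of these 16 rose: Ptgs1, Gja1 and Kcnj2 then had adjusted p of 0.0550, 0.143 and 0.229, and over all alternatives they lost the call under 3 of 16, 8 of 16 and 4 of 9. Thrombomodulin (Thbd), an anticoagulant receptor that rises with laminar flow, was at 411 and 573 against 221 and 233 CPM, a log2 difference of 1.10 (SE 0.16, adjusted p = 0.00285). Ednrb, an endothelin receptor, stood at 171 and 147 against 87.1 and 69.6 CPM, a log2 difference of 1.02 (SE 0.17, adjusted p = 0.00550). Edn1 itself was at 233 and 285 against 321 and 309 CPM and a log2 difference of -0.29 (SE 0.13, adjusted p = 0.206), and did not pass. Klf2, a flow-induced transcription factor, was at 1701 and 2132 against 1396 and 1334 CPM with a log2 difference of 0.48 (SE 0.13, adjusted p = 0.0510). For Thbd and Ednrb the deligated values all lay above the homeostatic ones. Nos3, the endothelial nitric oxide synthase, was at 77.0 and 76.2 against 113 and 107 CPM, a log2 difference of -0.53 (SE 0.14, adjusted p = 0.0445), and the mechanosensitive channel Piezo1 at 73.0 and 75.5 against 106 and 106 CPM, with -0.52 (SE 0.14, adjusted p = 0.0422). Klf4 had 0.51 (SE 0.14, adjusted p = 0.0441). Klf4, Piezo1 and Nos3, named after their values were seen, each lost the call under several alternatives, among them those without homeostatic library 1 (adjusted p of 0.168, 0.260 and 0.314) or homeostatic library 2 (0.466, 0.208 and 0.161). With either of these libraries left out, 1 shear response gene and 2 genes of vascular tone and junctions rose, and none of either list fell. Without deligated library 1, 5 shear response genes rose.

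Of 14 tested genes of lipid and glucose handling 2 rose and 2 fell, beside the same 3.39% and 9.12% over all genes, with a median log2 difference of -0.17. Without deligated library 2 this became 3 and 5, and without homeostatic library 2 it became 1 and 1. One that rose was Scarb1, a receptor for high-density lipoprotein, at 255 and 264 against 128 and 106 CPM and a log2 difference of 1.14 (SE 0.14, adjusted p = 0.00134). Both deligated values of Scarb1 lay above the homeostatic ones.

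Immediate early genes, which are induced within minutes by growth factors and also by enzymatic digestion of tissue, were higher in the deligated arterial cells. Of 18 tested 12 rose and 0 fell, beside 3.39% higher and 9.12% lower over all genes tested, with a median log2 difference of 0.95, and over all alternatives 9 to 12 rose; 1 fell without deligated library 2. Fos stood at 893 and 1163 against 327 and 369.6 CPM, a log2 difference of 1.55 (SE 0.15, adjusted p = 3.80e-04). Egr1 stood at 268 and 256 against 72.3 and 95.7 CPM, with 1.64 (SE 0.16, adjusted p = 3.75e-04) as its log2 difference. The phosphatase gene Dusp1 was at 258 and 483 against 135 and 135 CPM, a log2 difference of 1.43 (SE 0.24, adjusted p = 0.00519). All 3 were higher in both deligated libraries than in either homeostatic library.

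Jun, Junb and Btg2, named after their values were seen, had log2 differences of 0.92, 1.11 and 0.99 with adjusted p of 0.00272, 0.00634 and 0.0157 in arterial cells. Fos and Dusp1 were also at higher levels in deligated capillary-type cells: Fos had 1357 and 1550.0 against 570.0 and 549 CPM and Dusp1 313 and 564 against 187 and 174 CPM there. No member of the list had a difference between the classes past the threshold of the test described further on, although 2 did with likely doublets removed and 7 did once cells with UMIs of other cell types' markers had been removed. The protocol gives a single digestion schedule for both groups, and the part of digestion in these values was not tested.

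Because these genes moved together, their promoters are shown. RefSeq windows of 250 bases upstream of the annotated start (GRCm38.p6) were searched on both strands for the half-site TGACG of the cyclic AMP response element, which is CGTCA on the other strand. The palindrome made of both counts as 2 matches. The half-site was found in 9 of the 16 list members with an entry and in 17.8% of all 32851 windows. Of the members called as higher, 6 of the 10 with an entry had it. Fos (chr12:85473640-85473889, plus strand), Dusp1 (chr17:26508473-26508722, minus strand) and Btg2 (chr1:134079156-134079405, minus strand) are printed with the matches in capitals, Fos with 2 matches, Dusp1 with 3 and Btg2 with 2. Jun, Zfp36, Socs3 and Ier3, which also passed, had no match in their windows; Zfp36 lost its call under 2 alternatives and Ier3 under 1. Egr1 and Ier2 had no entry.
Fos: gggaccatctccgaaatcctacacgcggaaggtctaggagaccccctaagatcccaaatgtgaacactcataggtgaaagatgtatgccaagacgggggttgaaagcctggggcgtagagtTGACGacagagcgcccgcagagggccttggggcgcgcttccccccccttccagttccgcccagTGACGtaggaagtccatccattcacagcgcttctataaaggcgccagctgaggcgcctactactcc
Dusp1: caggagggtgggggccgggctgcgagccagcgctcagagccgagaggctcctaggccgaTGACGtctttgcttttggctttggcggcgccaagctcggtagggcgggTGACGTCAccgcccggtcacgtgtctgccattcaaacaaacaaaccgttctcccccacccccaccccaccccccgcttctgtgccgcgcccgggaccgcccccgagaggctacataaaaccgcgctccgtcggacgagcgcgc
Btg2: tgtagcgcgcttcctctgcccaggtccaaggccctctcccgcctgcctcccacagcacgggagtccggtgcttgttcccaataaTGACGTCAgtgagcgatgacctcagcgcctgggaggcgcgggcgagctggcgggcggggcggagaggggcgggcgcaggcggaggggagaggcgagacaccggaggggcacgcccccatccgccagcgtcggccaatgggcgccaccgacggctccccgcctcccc

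Of 14 tested genes of the circadian clock 5 rose and 2 fell, beside 3.39% higher and 9.12% lower over all genes tested, with a median log2 difference of 0.64, and with cells thinned to 1000 UMIs 2 of 7 rose. With the intron trend removed 5 rose and 0 fell. The 2 that fell, named after their values were seen, were Rora, a nuclear receptor that activates clock genes, and Arntl, a subunit of the clock's activator. Rora was at 32.4 and 27.0 against 115 and 116 CPM, a log2 difference of -1.95 (SE 0.18, adjusted p = 2.52e-04), and had -0.29 (adjusted p = 0.387) with that trend removed. Arntl was at 19.1 and 24.3 against 41.5 and 43.5 CPM, a log2 difference of -0.98 (SE 0.21, adjusted p = 0.0170), and had -0.64 (adjusted p = 0.107) with that trend removed; its call was lost under 5 of 15 alternatives. Dbp, a transcription factor and output of the clock, was at 83.4 and 119 against 21.4 and 19.6 CPM, a log2 difference of 2.28 (SE 0.22, adjusted p = 3.38e-04). Nr1d1, the repressor of the clock's positive limb, was at 102 and 135 against 28.1 and 34.1 CPM, a log2 difference of 1.92 (SE 0.19, adjusted p = 3.65e-04). On the opposite strand Thra overlaps Nr1d1 and Sphk2 overlaps Dbp, and whether counting used strand is not given in the sources used here. Capillary-type cells had 78.1 and 107 against 19.0 and 20.5 CPM of Nr1d1, so the same order of groups held there. The hour of harvest is not given in the sources used here. Col4a2 overlaps Col4a1, Junb overlaps Prdx2, Dusp1 overlaps Ergic1 and Plvap overlaps Gtpbp3 in the same way.

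Some of the genes that fell are known products of other cell types. All 13 tested secretory products of salivary epithelium fell, beside 9.12% of all genes tested, among them the kallikrein Klk1 at 9.84 and 16.9 against 624 and 1364 CPM and the mucin-like gene Mucl2 at 41.1 and 129 against 17534 and 5544 CPM. UMIs of this list were in 33.0% and 50.4% of deligated and in 100% of both sets of homeostatic arterial cells. In homeostatic library 1 a single cell held 35.3% of them, and in the other 3 libraries between 4.12% and 12.3%. The list was also lower in deligated than in homeostatic capillary-type cells. The 6 largest falls under the rule for named genes were also of secretory families or of an antiprotease family: the kallikreins Klk1b11 and Klk1b9, the secretoglobins Scgb2b26, Scgb1b27 and Scgb2b27, and Wfdc12. Scgb1b27, for instance, was at 7.53 and 20.2 against 2433 and 720.3 CPM in arterial and 16.6 and 272 against 2174 and 3999 CPM in capillary-type cells, and in capillary-type cells too, which the naming rule did not use, both deligated libraries lay below both homeostatic libraries for all 6. Close copies within these families can share reads, so values of single members are uncertain. Fxyd2, Nupr1 and G0s2, the next in that order, showed the same order in both classes, with 8.11 and 13.5 against 509.7 and 579.7 CPM of Fxyd2 in arterial and 3.63 and 42.4 against 781 and 761 CPM in capillary-type cells. Cd74, the class II invariant chain, was at 7.53 and 35.1 against 111 and 108 CPM and a log2 difference of -2.43 (SE 0.41, adjusted p = 0.00548). Its call was lost under 5 alternatives: -0.33 (adjusted p = 0.73) with likely doublets removed, -0.55 (0.638) with cells carrying other cell types' markers removed, -2.40 (0.108) by DESeq2, -1.95 (0.0694) with at least 3 arterial UMIs and -1.58 (0.113) with cells thinned to 1000 UMIs. Macrophage markers summed to 1.16 and 18.2 against 77.7 and 49.3 CPM in the arterial cells.

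Of 10 tested markers of mural cells, the pericytes and smooth muscle around vessels, 2 rose and 0 fell, beside 3.39% higher and 9.12% lower over all genes tested, and over the alternatives between 0 (DESeq2) and 7 (without homeostatic library 1) rose. Without homeostatic library 2, 3 rose and 3 fell. Those 2 were the contractile genes Acta2 and Myl9, Myl9 at 202 and 116 against 71.7 and 31.2 CPM and a log2 difference of 1.62 (SE 0.37, adjusted p = 0.0232). All 11 mural markers had UMIs in arterial cells, with sums of 1452 and 890 against 944 and 305 CPM, and in each library 1 cell held between 19.1% and 42.5% of them. Myl9 had 2.27 (adjusted p = 0.0524) with likely doublets removed, 1.64 (0.193) by DESeq2 and 1.47 (0.0505) with the intron trend removed. Acta2 had 1.57 (adjusted p = 0.310) by DESeq2, 1.44 (0.0691) with that trend removed and 1.49 (0.0603) with at least 2 of the 3 genes required. The part of attached mural cells in this was not tested.

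The design allowed a further question, whether arterial cells differed between the groups by more or less than capillary-type cells of the same libraries. An edgeR interaction term on 8 sums, with library as a factor, called 82 of 12428 genes (0.660%), 43 with a more positive (0.346%) and 39 with a more negative (0.314%) difference in arterial cells. Calls were spread over intron lengths, with 0.900% of genes over 100 kb and 1.05% of those up to 2 kb. Without deligated library 1 there were 144 calls and without deligated library 2 there were 240. Only 10 were made when arterial cells had to have a UMI of at least 2 of the 3 rule genes, and 13 with cells thinned to 1000 UMIs.

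The calls ran with the class in which a gene was higher. Of the 43 more positive genes 39 had the higher mean level in capillary-type cells, and of the 39 more negative genes 38 had the higher mean level in arterial cells. Over all genes tested 50.1% were higher in arterial cells. For the markers this meant that 4 of 12 capillary markers were more positive (Plvap, Kdr, Rgcc and Aplnr) and 4 of 19 arterial markers more negative (Gja4, Clu, Sox17 and Efnb2), and none of either list was called with at least 2 of the 3 genes required. The median difference of the capillary markers was 0.38 in the main comparison and 0.48 under that requirement, and that of the arterial markers -0.51 and -0.30. With cells thinned to 1000 UMIs 1 of each list was called. Without deligated library 2 the counts were 8 and 12, and without homeostatic library 2 they were 4 and 2. Rgcc was lost without homeostatic library 1 (0.51), and Efnb2 without deligated library 1, homeostatic library 1 or homeostatic library 2 (-0.42, -0.51 and -0.48). Efnb2 was also lost by DESeq2 (adjusted p = 0.400), with its size factors (0.0618) and with at least 3 arterial UMIs (0.0512). The same held with the intron trend removed (0.0573), with thinning (0.112) and without cells rich in lymphatic, haemoglobin or secretory UMIs (0.0850). On the log2 scale, arterial and capillary-type cells lay closer to each other in the deligated than in the homeostatic libraries for most of these genes. The depth of the libraries, given above, also differed. Thinning was done on cells already chosen on all their UMIs, so the part of depth in which cells met the rule was not tested for these differences.

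Cldn5 (chr16:18776847-18778262) was the clearest case among arterial genes. It stood at 729.5 and 897 against 1110.5 and 1105 CPM in arterial and 22.7 and 26.6 against 15.2 and 10.7 CPM in capillary-type cells. Its difference was more negative in arterial cells by a log2 value of -1.39 (SE 0.13, adjusted p = 6.57e-04), and it was called under all 14 alternatives. Its arterial difference alone, -0.46 (SE 0.13, adjusted p = 0.0603), did not pass. It passed as lower under 8 alternatives, among them DESeq2 (adjusted p = 0.0403), doublet removal (0.0174) and removal of the intron trend (-0.71, adjusted p = 0.0158). For Cldn5 the arterial libraries were lower and the capillary-type libraries higher in the deligated group.

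Gja4 showed the same order, at 317 and 439.7 against 573 and 563 CPM in arterial and 43.5 and 45.7 against 32.2 and 29.2 CPM in capillary-type cells, with a log2 value of -1.14 (SE 0.13, adjusted p = 0.00162). With at least 2 of the 3 genes required, the value for Gja4 was -0.96 (adjusted p = 0.0798). Clu, which encodes the secreted chaperone clusterin, was at 862 and 579 against 553 and 629.8 CPM in arterial and 113 and 60.0 against 35.5 and 37.1 CPM in capillary-type cells, with a log2 value of -0.93 (SE 0.11, adjusted p = 0.00281). Clu had -0.59 (adjusted p = 0.387) with cells thinned to 1000 UMIs and -0.75 (0.0989) with at least 2 of the 3 genes required. Sox17 had -1.08 (SE 0.21, adjusted p = 0.0409), and its call was lost under 5 alternatives. These were the one without homeostatic library 2 (-0.97, adjusted p = 0.0923), DESeq2 (-1.06, 1.00), thinning (-0.86, 0.155), at least 2 of the 3 genes (-0.91, 0.349) and removal of cells rich in lymphatic, haemoglobin or secretory UMIs (-1.05, 0.0565).

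In the other direction, Fam167b was at 334 and 377 against 307 and 299 CPM in capillary-type cells beside the arterial values given above, and its difference was more positive in arterial cells by 1.53 (SE 0.18, adjusted p = 0.00281). Col15a1 had 601 and 501 against 335 and 334 CPM there and 1.37 (SE 0.15, adjusted p = 0.00142). With thinning Fam167b had 1.46 (adjusted p = 0.0984) and Col15a1 1.37 (0.0558), and with at least 2 of the 3 genes required they had 1.84 (0.0947) and 1.56 (0.0989). Plpp1, a lipid phosphate phosphatase named after its values were seen, was at 708 and 660.2 against 378 and 410.2 CPM in arterial and 1948 and 2084 against 2187 and 2159 CPM in capillary-type cells, with 0.90 (SE 0.09, adjusted p = 7.32e-04). For Plpp1 the deligated libraries were higher in arterial and lower in capillary-type cells. The arterial difference of Plpp1 alone was 0.79 (SE 0.14, adjusted p = 0.00693), and 0.74 (adjusted p = 0.0893) without homeostatic library 1 and 0.84 (0.0611) without homeostatic library 2. The difference between the classes was 0.83 (adjusted p = 0.125) with at least 2 of the 3 genes required.

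Slco2b1, an organic anion transporter, was at 34.7 and 47.2 against 20.8 and 23.9 CPM in arterial and 67.8 and 125 against 149 and 155 CPM in capillary-type cells, with a difference of 1.56 (SE 0.21, adjusted p = 0.00395). The arterial rise alone, 0.86 (SE 0.23, adjusted p = 0.0414), was lost under 7 of 15 alternatives, among them those without deligated library 2, homeostatic library 1 or homeostatic library 2 (adjusted p of 0.0746, 0.168 and 0.0752). Ifi27l2a, an interferon-inducible gene, was at 73.5 and 102 against 106 and 109 CPM in arterial cells, where it did not pass, and at 5.50 and 20.5 against 74.6 and 87.5 CPM in capillary-type cells. Its difference of 2.42 (SE 0.30, adjusted p = 0.00281) was called under every alternative, and the capillary-type levels were the ones far apart between the groups. Slco2b1 had 1.67 (adjusted p = 0.314) with thinning and 1.73 (0.232) with at least 2 of the 3 genes required. Aplnr had 2.03 (SE 0.38, adjusted p = 0.0326), and 1.57 (adjusted p = 0.0977) without homeostatic library 2, 1.78 (0.741) with thinning and 1.99 (0.548) with at least 2 of the 3 genes. Lrg1 had 1.77 (SE 0.35, adjusted p = 0.0409), and 1.40 (adjusted p = 0.229) without that library, 1.81 (0.147) by DESeq2 and 1.99 (0.683) with thinning.

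**Figure D5:**
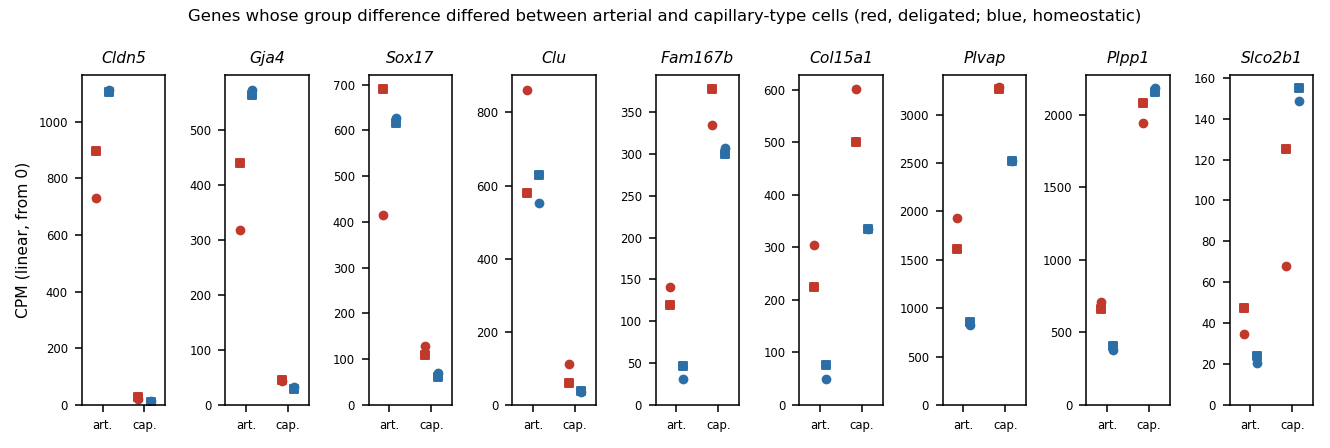
CPM (linear axis from 0) of 9 genes in arterial (art.) and capillary-type (cap.) cells, 1 point per library, circles for library 1 and squares for library 2 of each group. Cldn5, Gja4, Sox17 and Clu are higher in arterial cells, and the other 5 genes are higher in capillary-type cells, in every library.

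Some of the most negative differences were in genes of pericytes and smooth muscle. Rgs5, a pericyte marker, was at 126 and 225 against 365 and 84.8 CPM in arterial and 145 and 235 against 21.9 and 22.6 CPM in capillary-type cells, with a difference of -3.29 (SE 0.44, adjusted p = 0.00395). With likely doublets removed Rgs5 had -1.83 (adjusted p = 0.110), and by DESeq2 -3.09 (adjusted p = 0.284). With cells carrying other cell types' markers removed it had -0.27 (adjusted p = 0.959). That removal dropped cells with at least 2 UMIs of lists that hold Rgs5 and Notch3 themselves. The value for Rgs5 is thus partly fixed by the filter and decides nothing. Notch3 had -2.95 (SE 0.36, adjusted p = 0.00281), and -0.46 (adjusted p = 0.935) with likely doublets removed. Mural markers summed to 366 and 1074 against 201 and 86.9 CPM in the capillary-type cells.

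Mgp had 26.0 and 76.6 against 11.6 and 17.8 CPM in capillary-type cells and a difference of -3.11 (SE 0.45, adjusted p = 0.00648), or -3.04 (adjusted p = 0.216) by DESeq2. With at least 2 of the 3 genes required Mgp had -2.83 (adjusted p = 0.0717). Tmem100, which BMP signalling induces in arterial endothelium, was at 90.9 and 99.8 against 105 and 92.8 CPM in arterial and 3.63 and 7.00 against 0.715 and 0.698 CPM in capillary-type cells, with a difference of -2.94 (SE 0.37, adjusted p = 0.00281). Its arterial levels overlapped between the groups, and its capillary-type levels, all low, were higher in the deligated group.

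Against 220 venous-type cells (78, 47, 51 and 44, with at least 2 UMIs of Selp and Ackr1), the same test called 25 of 9757 genes (0.256%), 18 more positive (0.184%) and 7 more negative (0.0717%) in arterial cells. None of 19 arterial markers was among them. Lrg1 had the smallest p, with a difference of 3.39 (SE 0.32, adjusted p = 1.92e-11). It was at 431 and 586 against 468 and 539 CPM in venous-type cells, where the groups overlapped, beside its arterial rise given above. Nrp2, a co-receptor for VEGF family ligands that was named after its values were seen, had 1.47 (SE 0.23, adjusted p = 6.57e-05) with 159 and 115 against 68.3 and 71.0 CPM in arterial cells. Gpihbp1 had -1.41 (SE 0.29, adjusted p = 0.00474) in the opposite direction. Each venous-type sum rested on 44 to 78 cells.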

How the data were processed

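Counts of UMIs per gene and barcode were made and deposited by the authors, with Cell Ranger 6.0.1 (deligated) and 7.0.0 (homeostatic) per the file headers. The submitters' processing notes name Cell Ranger 6.0.1, Seurat and mm10, and whether intronic reads were counted is not given in the sources used here. Cells were selected by the rule in the report in Python 3.11.15. UMIs were summed per library and class and tested with edgeR 4.0.16 in R 4.3.3 (TMM scaling, filterByExpr, quasi-likelihood test, Benjamini-Hochberg threshold 0.05). The rule's genes, of which 12 passed the filter on low counts in the arterial fit, were left out of all counts.

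Members and gene lists were chosen with earlier results of these data known. Named genes were the 10 largest rises and 10 largest falls without overlap between groups (mean CPM of at least 20, at most 10 kb of introns, the same direction with the intron trend removed, none of the haemoglobin and secretory lists, which do not hold every secretory gene), the 6 most positive and 6 most negative differences from capillary-type cells, the 15 highest and 5 lowest ratios to them, up to 4 called genes of each list, and defining markers. Alternatives were DESeq2 1.42.0 and its size factors, no filter on low counts, each library left out, at least 3 arterial UMIs, likely doublets removed (the highest Scrublet scores, 0.8% per 1000 cells, in scanpy 1.11.5; doublets otherwise stayed in), cells with other types' markers removed, thinning to 1000 UMIs, a replicate block, and the intron trend removed by a lowess offset. Alternatives chosen after seeing the data were at least 2 of the 3 arterial genes, thinning of only those genes, and removal of cells rich in lymphatic, haemoglobin or secretory UMIs. On simulated data with 100 genes changed at each size, the arterial comparison recovered 57% at a log2 size of 1 and 93% at 2, and the difference from capillary-type cells 40% and 65%.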

Additional observations from a re-analysis of the deposited data

Results flagged for a closer look

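For 12 genes named by rule, the difference between deligated and homeostatic libraries was itself different in arterial and capillary-type cells, by edgeR's interaction term over 12428 genes. It was more positive in arterial cells for Ifi27l2a (2.42), Aplnr (2.03), Lrg1 (1.77), Slco2b1 (1.56), Fam167b (1.53) and Col15a1 (1.37), all on the log2 scale. Ifi27l2a stood at 5.50 and 20.5 against 74.6 and 87.5 CPM (deligated against homeostatic) in capillary-type cells and at 73.5 and 102 against 106 and 109 CPM in arterial cells.

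The difference was more negative for Rgs5 (-3.29), Mgp (-3.11), Gucy1b1 (-2.98), Notch3 (-2.95), Tmem100 (-2.94) and Bgn (-2.82). With likely doublets removed Rgs5 had -1.83 (adjusted p = 0.110), Gucy1b1 -2.0 (0.168) and Notch3 -0.46 (0.935). With cells carrying other types' markers removed Gucy1b1 had -4.86 (adjusted p = 0.164), and Bgn did not pass (adjusted p = 0.202). Tmem100 was lost under thinning to 1000 UMIs and under no other alternative. The part of attached mural cells in these values was not tested. Mural markers were among the genes used to remove cells with other types' markers, so that removal cannot decide it.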

How the results depend on the processing

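The arterial comparison called 1200 genes by edgeR and 695 by DESeq2. The total was 1851 with no filter on low counts, 361 with cells thinned to 1000 UMIs and 683 with the intron trend removed. With 1 library left out it was 838 to 1983. Of the 1200 main calls, DESeq2 kept 687 in the same direction, thinning 342 and removal of the intron trend 528. Against capillary-type cells the 82 calls became 47 by DESeq2, 314 with no filter, 139 with cells carrying other markers removed, 13 with thinning and 10 with at least 2 of the 3 genes required, and 67 to 240 with 1 library left out. The replicate block gave 1534 calls. The labels give no shared origin for libraries of the same number. Replicate 1 of the groups had a correlation of deviations of -0.0156 over genes, a value that cannot decide whether libraries were paired. The difference in arterial share was 2.52 to 3.81 points with 1 library left out. No alternative was run for the comparison with venous-type cells.

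Some arterial differences changed sign, none of them called in the main comparison except Prdm16. With 1 library left out Rgs5 ranged from -1.09 to 1.04, Gucy1b1 from -0.88 to 0.084, Notch3 from -1.05 to 0.056, Tmem100 from -0.16 to 0.040, Sox17 from -0.53 to 0.097, Clu from -0.082 to 0.60 and Efnb2 from -0.22 to 0.16. With doublets removed Rgs5 was 0.63, Gucy1b1 0.33 and Notch3 1.41, and with thinning Rgs5 was 0.26. Tmem100 was 0.11 with at least 3 arterial UMIs and 0.17 with 2 of the 3 genes, where Efnb2 was 0.053. With the intron trend removed Efnb2 was 0.0068 and Prdm16 0.43, or 0.44 with the replicate block.

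Among differences from capillary-type cells, none of them called in the main comparison, Socs3 ranged from -0.15 to 0.035, Myl9 from -1.64 to 1.58 and Fbln5 from -0.095 to 0.31 with 1 library left out. Doublet removal gave Socs3 0.13, Myl9 0.90 and Fbln5 -0.11, and removal of cells with other markers gave Socs3 0.26 and Fbln5 -0.21. Thinning gave Nr1d1 0.57 and Socs3 0.48, 2 of the 3 genes gave Egr1 -0.075, and removal of cells rich in lymphatic, haemoglobin or secretory UMIs gave Socs3 0.019 and Myl9 0.073. The cause was not tested in any of these. With 2 libraries a group, the smallest exact p is 0.33, and genes that differ by a log2 of 1 are often missed.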
